A study of Mus musculus with 11 samples.

Results

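Surface antigens that are used to sort or subdivide mouse mammary epithelium were followed at the level of their transcripts: Cd24a, Epcam, Prom1, Ly6a, Cd44, Cd14, Kit and Cd55. They were chosen by name, as the non-integrin sorting and subset markers, and every probe assigned to them through its RefSeq accession was taken. This gave 12 probes for 8 genes, of 14068 named genes and 29429 features tested in all. All 8 genes passed the filter on dim probes, which required a signal well above background on at least 3 of 11 arrays.

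The arrays came from mouse mammary outgrowths. Primary mammary epithelial cells were transduced with a lentivirus carrying a hairpin and injected in Matrigel, and luminal and basal cells were then sorted from the outgrowths by CD24 and CD29. The hairpin shROR2 is directed at Ror2, which encodes a receptor in non-canonical Wnt signalling, and shLUC is the luciferase control, so all 4 groups carried a lentiviral hairpin and had been transplanted. Used here were 3 arrays of luminal shLUC, 2 of luminal shROR2, 3 of basal shLUC and 3 of basal shROR2 cells, and 1 more luminal shROR2 sample was not analysed here. The labels name the samples biological triplicates and give neither the mouse strain nor the age, nor whether animals were pooled. The comparisons ask how the markers differ between the layers and what the hairpin changed in each layer.

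The mammary duct has an inner luminal layer, which holds hormone-sensing cells and progenitors of the milk-producing alveoli, and an outer basal layer of contractile myoepithelial cells. Antibodies to surface proteins separate these layers and divide each further. CD24 and EpCAM separate luminal from basal cells, prominin-1 and Sca-1 (encoded by Ly6a) are used for hormone-sensing luminal cells, KIT, CD14 and CD55 have been used for luminal progenitor fractions, and CD44 is a hyaluronan receptor that is prominent on basal cells.

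Promoter sequences are shown for 3 members: Epcam and Prom1, 2 of the 7 that were lower in basal cells, and Cd44, the only member that was higher there. Each sequence holds the 250 bases before the annotated start, 5′ to 3′ on the gene's strand, from RefSeq (GRCm38.p6). Epcam lies at chr17:87635729-87635978 on the plus strand, Prom1 at chr5:44101737-44101986 on the minus strand and Cd44 at chr2:102901666-102901915 on the minus strand. Capitals mark the E-box CAGGTG or its reverse complement CACCTG, and the AP-1 motif TGACTCA or TGAGTCA.
Epcam: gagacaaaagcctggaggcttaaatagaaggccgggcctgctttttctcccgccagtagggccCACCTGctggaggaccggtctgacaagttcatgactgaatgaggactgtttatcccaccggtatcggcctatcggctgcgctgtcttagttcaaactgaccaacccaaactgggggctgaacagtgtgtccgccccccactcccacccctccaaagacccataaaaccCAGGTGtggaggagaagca
Prom1: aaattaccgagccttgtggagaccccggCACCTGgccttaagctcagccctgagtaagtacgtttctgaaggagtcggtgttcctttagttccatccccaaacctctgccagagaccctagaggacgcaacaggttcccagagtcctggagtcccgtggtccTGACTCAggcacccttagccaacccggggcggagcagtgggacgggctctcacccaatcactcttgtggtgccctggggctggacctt
Cd44: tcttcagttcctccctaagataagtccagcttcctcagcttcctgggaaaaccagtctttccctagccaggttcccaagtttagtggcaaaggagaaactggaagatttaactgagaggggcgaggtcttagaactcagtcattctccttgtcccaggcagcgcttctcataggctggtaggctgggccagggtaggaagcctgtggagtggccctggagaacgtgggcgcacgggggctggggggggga
The E-box occurred 2 times before Epcam, at 187 and 19 bases before the start, and 1 time before Prom1, at 222 bases. It was found in 17.2% of 32851 promoter windows of this length. The AP-1 motif stood 88 bases before the Prom1 start and occurred in 4.46% of windows. The Cd44 window held neither and had 4 matches to the ETS core GGAAG (or CTTCC), a motif present in 64.1% of windows. These matches are descriptions of letters, and none was tested as a binding site. A second annotated start of Prom1 (chr5:44094769-44095018, minus strand, sequence not shown) held neither the E-box nor the AP-1 motif and had 4 ETS core matches, as many as the Cd44 window. Windows of Cd55 and Kit, which were also lower in basal cells, held neither the E-box nor the AP-1 motif. The windows shown therefore do not stand for all members that were lower there, and no contrast with Cd44 can be drawn from them. Sequences of Cd24a and Ly6a are not shown, and neither is that of Cd14.

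The arrays were comparable in quality. The share of probes well above background was 52.8% to 59.5%, no spot was saturated, and the 75th percentile of the signal, by which each array was scaled, ranged from 114.1 to 132.9. Arrays of a group correlated at 0.976 to 0.983 in the first 3 groups and at 0.941 to 0.953 in basal shROR2, where the replicates differed most. The number of arrays, 2 or 3 in each group, limits the precision of every value. Levels are given as the processed signal divided by that percentile (scaled level), and are compared only within a probe. The layers carried the markers of their labels. The summed scaled level of 7 basal epithelial markers was 107 to 119 in luminal and 1407 to 1639 in basal arrays. That of 7 luminal markers was 397 to 452 in luminal and 47.8 to 75.8 in basal arrays.

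The target of the hairpin, Ror2, could not be used to check the labels. Its only probe was well above background on 1 of the 11 arrays, and that array was labelled basal shROR2 (replicate 1). The scaled level of Ror2 was 0.145 there, 0.026 and 0.0606 on the other basal shROR2 arrays and 0.0861 to 0.0947 on the basal shLUC arrays. In luminal cells it was 0.0275 to 0.0294 with shLUC and 0.0288 and 0.0725 with shROR2. Exact 2-sided permutation of the arrays, which cannot go below 0.1 here, gave p = 0.7 in basal and p = 0.3 in luminal cells. A decrease of Ror2 was thus not shown by these arrays. The group names below are those of the labels, and every direction drawn from the hairpin comparisons rests on them. The arrays labelled basal shROR2 replicate 1 and luminal shROR2 replicate 2 read higher in Ror2 than their controls, the latter below background.

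Between the layers of control outgrowths, 7 of the 8 members were lower in basal than in luminal cells and Cd44 was higher, all at adjusted p under 0.05 in limma. Across all features 27.0% were called in this comparison, 13.7% higher and 13.3% lower in basal cells. The median change of the members was -2.17 on the log2 scale, against -0.06 for all features. For each of the 8 genes the luminal and basal shLUC arrays did not overlap, as in 52.2% of all features. All 5 luminal arrays also lay on one side of all 6 basal arrays. The share of all features that did so was not counted. In RNA from sorted bulk cells, fewer cells that carry a transcript and less transcript in each cell cannot be told apart. Markers of other cells also differed between these layers (limma, adjusted p under 0.05). In basal cells 5 of 6 tested macrophage and 4 of 9 leukocyte markers were lower and 0 higher. Of the fibroblast markers 7 of 8 and of the endothelial markers 6 of 8 were higher there and 0 lower. The part of these cells in the layer differences was not tested.

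**Figure D1:**
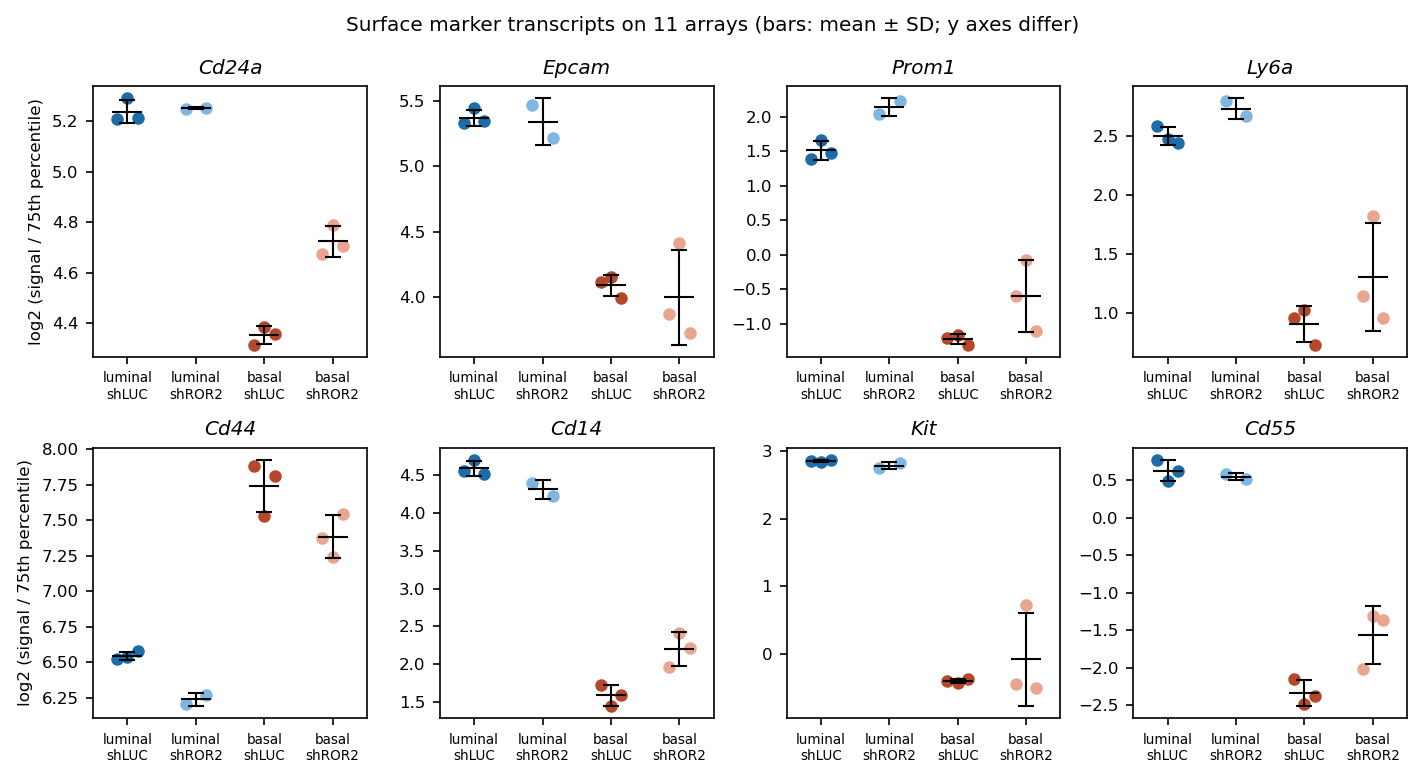
Scaled level of 8 surface marker transcripts on 11 arrays, as log2 of the processed signal over the array's 75th percentile (y axis, a separate range in each panel), by group (x axis). Points are arrays and bars give mean ± SD; Cd44 is highest in the basal groups, and the other 7 genes are highest in the luminal groups.

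Cd24a encodes CD24, a glycosylated GPI-anchored protein, and its antibody was part of the gate. Its scaled level was 37.0, 39.2 and 37.1 on the luminal shLUC arrays and 38.0 and 38.2 on the luminal shROR2 arrays. In basal cells it was 19.9, 20.9 and 20.5 with the control hairpin and 25.5, 27.7 and 26.1 with shROR2. Both basal groups lay below every luminal array, 1.85-fold lower (95% interval 1.60 to 2.13) in control outgrowths. Because the gate selected on this antigen, the difference describes the sort and is not a finding between the layers. The other antigen of the gate, CD29 (Itgb1), ran the opposite way, with scaled levels of 4.32 to 4.90 in luminal and 7.65 to 14 in basal arrays, a log2 difference of 1.36 ± 0.20 (SE) in shLUC. Cd24a had the smallest layer difference of the 8 members, and 23% of all features changed more.

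Epcam encodes a homophilic adhesion molecule of epithelia. Its scaled level was 40.2, 43.5 and 40.7 on the luminal shLUC arrays and 44.3 and 37.1 on the luminal shROR2 arrays. The basal arrays gave 17.3, 17.8 and 15.9 with the control hairpin and 14.6, 21.3 and 13.2 with shROR2. The basal arrays were all lower, by 2.44-fold (1.85 to 3.22) in control outgrowths, with a log2 change of -1.29 ± 0.18 (SE; adjusted p = 0.000741, limma). Epcam was well above background on all 6 basal arrays.

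Prom1 and Ly6a are markers of the hormone-sensing luminal fraction. Prom1, a pentaspan protein of membrane protrusions, had a scaled level of 2.63, 3.18 and 2.77 on the luminal shLUC arrays and 4.13 and 4.69 on the luminal shROR2 arrays. Basal levels were 0.433, 0.445 and 0.406 with the control hairpin and 0.661, 0.952 and 0.462 with shROR2. The basal shLUC arrays were tightly grouped, 6.66-fold (4.64 to 9.57) below luminal cells (log2 change -2.74 ± 0.23, adjusted p = 3.33e-05, limma). Prom1 was 3.5-fold lower in the authors' deposited table and 3.73-fold lower with normexp background correction. A second, dim Prom1 probe was well above background on all 5 luminal and on none of the 6 basal arrays. Ly6a encodes the GPI-anchored antigen Sca-1, and its scaled level was 5.99, 5.54 and 5.41 on the luminal shLUC arrays and 6.93 and 6.37 on the luminal shROR2 arrays. On basal arrays it was 1.94, 2.03 and 1.66 with the control hairpin and 2.20, 3.53 and 1.94 with shROR2. Its basal level was 3.02-fold (2.17 to 4.19) lower in control outgrowths (log2 change -1.59 ± 0.21, adjusted p = 0.000549, limma). Whether this probe also takes up other Ly6 transcripts was not tested.

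Cd14, Kit and Cd55, the markers of luminal progenitor fractions, had the largest differences together with Prom1 in the main processing. Cd14, a GPI-anchored co-receptor for lipopolysaccharide, had a scaled level of 23.6, 26.1 and 22.9 on the luminal shLUC arrays and 21.1 and 18.7 on the luminal shROR2 arrays. The basal values were 3.31, 2.73 and 3.02 with the control hairpin and 3.91, 5.33 and 4.65 with shROR2. The 4 groups did not overlap in Cd14, and control basal cells were 8.03-fold (6.42 to 10.1) below control luminal cells (adjusted p = 9.27e-07, limma). Kit, the receptor tyrosine kinase for stem cell factor, was measured with 2 spots of the same probe. Its scaled level was 7.22, 7.16 and 7.34 on the luminal shLUC arrays and 6.76 and 7.08 on the luminal shROR2 arrays. Basal arrays read 0.758, 0.740 and 0.775 with the control hairpin and 0.730, 1.64 and 0.703 with shROR2. Only the array of basal shROR2 replicate 2 stood apart within its group. In the main processing Kit had the largest difference of the 8, 9.56-fold (6.13 to 14.9) in control outgrowths (adjusted p = 4.02e-05, limma), and 2.16% of all features changed more; in the authors' deposited table the log2 difference was -2.57 for Kit and -2.81 for Cd14, and with normexp background correction it was -2.63 and -2.78.

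Cd55, a GPI-anchored inhibitor of complement activation, had a scaled level of 1.71, 1.41 and 1.54 on the luminal shLUC arrays and 1.5 and 1.43 on the luminal shROR2 arrays. In basal cells it was 0.226, 0.178 and 0.192 with the control hairpin and 0.248, 0.403 and 0.387 with shROR2. All basal arrays were below all luminal arrays, by 7.83-fold (5.76 to 10.6) in control outgrowths (adjusted p = 6.91e-06, limma). The size of the Cd55 difference depended on the background treatment, at 2.69-fold in the authors' deposited table and 2.89-fold with normexp. Its close paralog Cd55b had 2 probes that differed in size, with log2 changes of -0.64 ± 0.20 and -2.70 ± 0.28 (SE). Cross-hybridization between these paralogs was not tested.

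Cd44 encodes the hyaluronan receptor and was the one member that was higher in basal cells. Its brightest probe gave a scaled level of 91.9, 92.6 and 95.4 on the luminal shLUC arrays and 73.8 and 77.2 on the luminal shROR2 arrays. The basal arrays gave 236, 185 and 224 with the control hairpin and 166, 151 and 186 with shROR2. The 2.29-fold (1.88 to 2.80) difference in control outgrowths (log2 change 1.20 ± 0.13, adjusted p = 0.000149, limma) exceeded the spread of every group. The other 3 Cd44 probes gave log2 differences of 1.43, 1.51 and 1.56.

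**Figure D2:**
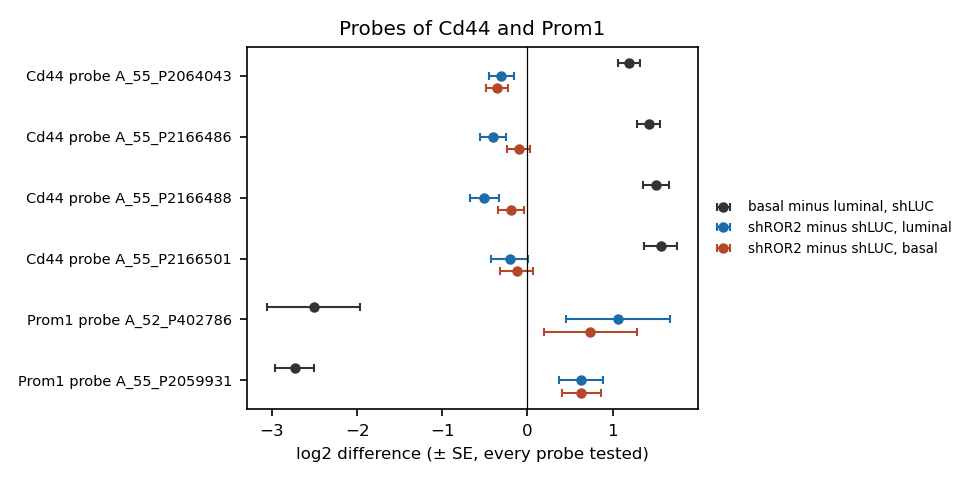
Log2 difference (x axis) for each of the 4 Cd44 and 2 Prom1 probes (y axis), with every probe tested and bars of ± 1 SE. Black points give basal minus luminal cells in shLUC outgrowths, and blue and red points give shROR2 minus shLUC in luminal and basal cells; all Cd44 probes lie above 0 and both Prom1 probes below 0 in black.

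In shROR2 outgrowths the same 7 members were lower and Cd44 was higher in basal cells, all 8 called by limma. The background was 22.8% of features called, 10.6% higher and 12.3% lower, and groups apart in 45.7%, and the median of the members was -1.77 against -0.08 for all features. Cd14 was 4.33-fold lower, Cd55 4.33-fold, Kit 7.32-fold, Prom1 6.64-fold and Ly6a 2.69-fold. In the authors' deposited table Cd55 was 2.24-fold and Prom1 4.06-fold lower. Fitted on these 5 arrays alone, Cd24a (adjusted p = 0.127), Epcam (0.0507) and Ly6a (0.06) no longer passed.

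**Figure D3:**
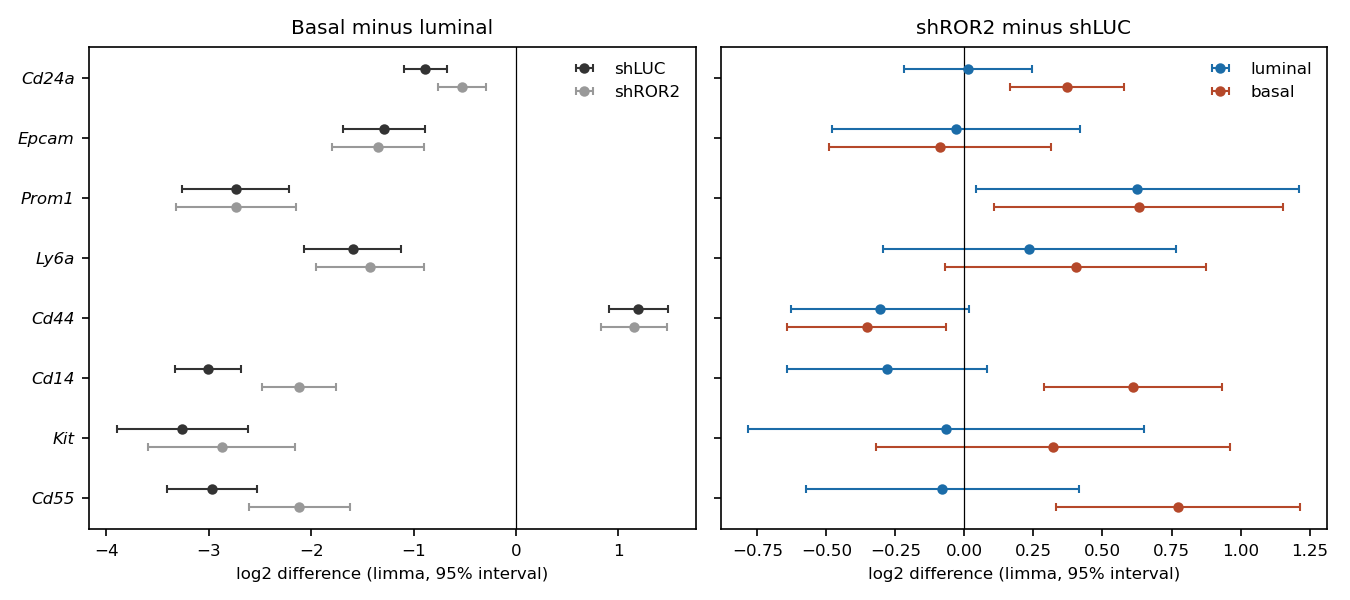
Log2 difference (x axis) of each marker transcript with its 95% interval from limma. The left panel gives basal minus luminal cells in each kind of outgrowth, with Cd44 alone above 0, and the right panel gives shROR2 minus shLUC in each layer, where Cd14, Cd24a, Cd55 and Prom1 in basal cells and Prom1 in luminal cells have intervals above 0 and Cd44 in basal cells has one below 0, although no member passed the adjusted threshold.

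In luminal cells the hairpin comparison called no member, and it called 0.00340% of all features (1 of 29429). In limma 1 member, Prom1, had an unadjusted p under 0.05, as did 5.55% of all features. Both luminal shROR2 arrays were above all 3 shLUC arrays in Prom1, with a log2 difference of 0.63 ± 0.26 (SE; 95% interval 0.04 to 1.21, adjusted p = 0.852, limma). For Cd44 both shROR2 arrays were below all shLUC arrays, by -0.31 ± 0.14 on the brightest probe and by -0.41, -0.51 and -0.21 on the others. The arrays of the groups did not overlap in 5 of 8 members, against 29% of all features with arrays of 2 against 3. The intervals were -0.22 to 0.24 for Cd24a and -0.48 to 0.42 for Epcam.

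In basal cells the hairpin comparison called none of the 8 members, and it called 0.968% of all features, 0.384% higher and 0.584% lower with shROR2. In simulated data a log2 change of 0.5 was recovered in 2% of the changed features in either layer. The simulation changed few features and gave a feature the same spread in all groups, so this rate need not hold here. The arrays of the groups did not overlap in 4 of 8 members, against 18.5% of all features. In limma 5 members (Cd24a, Cd14, Cd55, Prom1 and Cd44) had an unadjusted p under 0.05, and 15.8% of all features did. Values lay higher with shROR2 in Cd24a by 0.37 ± 0.09 (adjusted p = 0.104, limma), in Cd14 by 0.61 ± 0.14 (0.0925), in Cd55 by 0.77 ± 0.19 (0.11) and in Prom1 by 0.63 ± 0.23 (0.235), on the log2 scale with SE. In these 4 genes every basal shROR2 array was above every basal shLUC array on the brightest probe, which held in that direction for 6.74% of all features. In the authors' deposited table it held for Cd24a and Cd14 and not for the others: Cd55 was 107.5 on the array labelled basal shROR2 replicate 1 and 111.3 on shLUC replicate 1, and Prom1 was 124.5 on shROR2 replicate 3 and 130.2 and 127.8 on shLUC replicates 1 and 2. Ly6a differed by 0.40 ± 0.21, Kit by 0.32 ± 0.28, Epcam by -0.09 ± 0.18 and Cd44 by -0.35 ± 0.13, and the arrays of the groups overlapped in each. The other 3 Cd44 probes gave -0.10, -0.19 and -0.13 in basal cells, with unadjusted limma p of 0.472, 0.245 and 0.525. The second, dim Prom1 probe gave 0.74 ± 0.54 (SE) in basal cells, with an unadjusted limma p of 0.208. On that probe basal shROR2 replicate 2 had a scaled level of 0.024, below the basal shLUC arrays at 0.027 to 0.0539. The hairpin and layer comparisons share the shLUC arrays, so their values for a gene are not independent. The gate selected on CD24, and its part in the Cd24a difference between the hairpins was not tested.

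Single arrays moved several of these values. The array of basal shROR2 replicate 2 was the highest of its group in 7 of the 7 members that are lower in basal cells. Without it the log2 difference was -0.08 for Kit, 0.14 for Ly6a and 0.37 for Prom1. Without the array labelled basal shROR2 replicate 1, Cd14 (0.73, adjusted p = 0.0372, limma) and Cd55 (1.00, adjusted p = 0.0173) passed the threshold. Calls over all features then rose from 285 of 29429 to 904 of 29120. With another array left out neither gene passed, and the adjusted p in limma reached 0.25 for Cd14 and 0.284 for Cd55. Over the 11 other settings the adjusted p in limma reached 0.4 for Cd24a and 0.358 for Cd14, and each passed in 2 settings. Under the authors' deposited normalization Cd24a (0.39, adjusted p = 0.0253) and Cd14 (0.54, adjusted p = 0.0279) passed in limma. With normexp background correction they did as well (0.34, 0.0486 and 0.53, 0.0412). These 2 settings also called more of all features, 539 of 29443 and 687 of 29429, against 285 of 29429 in the main fit. The same settings gave smaller differences for Cd55 and Prom1, which did not pass: 0.22 (adjusted p = 0.304) and 0.30 (0.292) in the deposited table, and 0.25 (0.261) and 0.34 (0.255) with normexp. Within the first slide, the basal differences were 0.36 for Cd24a, 0.43 for Cd14, 0.57 for Cd55 and 0.40 for Prom1; within the second they were 0.40, 0.97, 1.18 and 1.1, from 1 array per group.

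**Figure D4:**
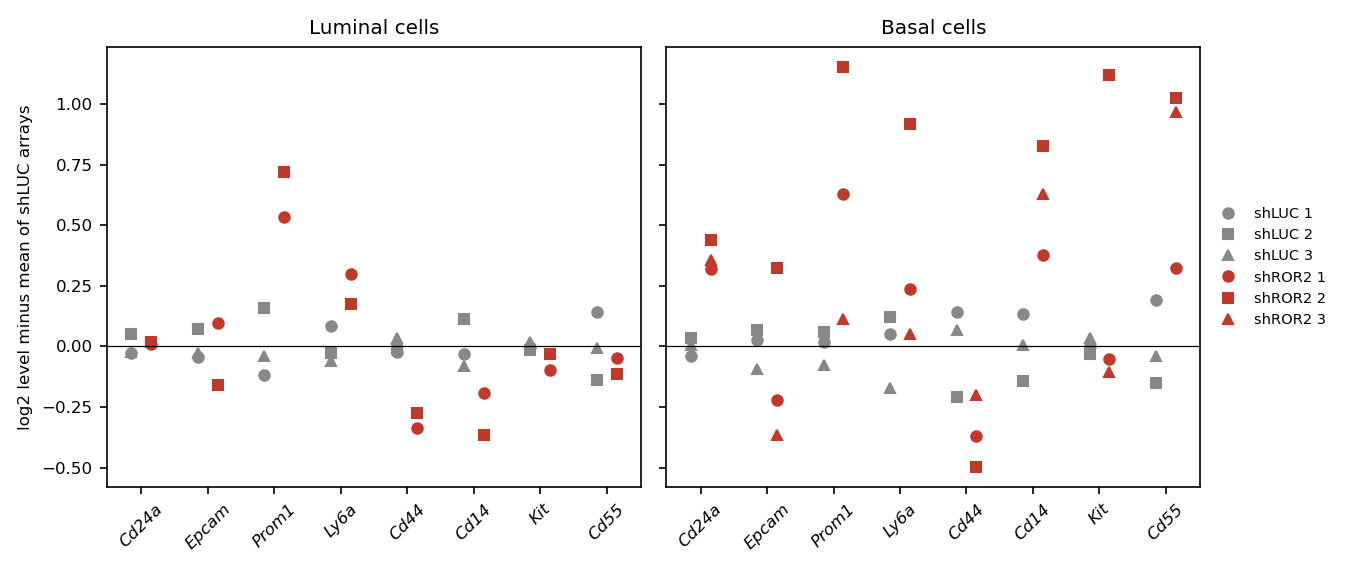
Deviation of every array (log2, y axis) from the mean of the shLUC arrays of its layer, for 8 marker transcripts (x axis), in luminal cells (left) and basal cells (right). Grey symbols are shLUC and red symbols shROR2, and the shape gives the replicate number; the red square (replicate 2) is the highest basal shROR2 point in all members but Cd44.

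Markers of other cells moved with the hairpin groups. The summed level of the 7 luminal markers in basal cells was 47.8 to 51.1 with the control hairpin and 60.6, 75.8 and 59.3 with shROR2, highest on replicate 2. The sum of 9 leukocyte markers was 24.8 to 29.7 in basal shLUC and 53.2 to 67.7 in basal shROR2, and in luminal cells 53.1 to 56.3 and 79.0 to 82.6. In basal cells 4 of 9 leukocyte markers and 3 of 6 tested macrophage markers were higher with shROR2 (limma, adjusted p under 0.05), including Cd74 by 1.27 and H2-Ab1 by 1.12. Cd14 is a monocyte and macrophage antigen, and the summed level of 7 macrophage markers was 37.7 to 38.3 in basal shLUC and 39.7 to 46.5 in basal shROR2. Mrc1 was not well above background on any basal array. Such a sum is weighted to the brightest markers. Taken singly, the 6 tested macrophage markers had a median log2 change of 1.21 with shROR2 in basal cells, 5 positive and 1 negative. Kit is also a mast cell gene, and 7 mast cell markers summed to 2.32 to 2.68 on the basal shLUC arrays and to 2.73, 4.06 and 6.61 on the shROR2 arrays. Fcer1a and Ms4a2 among them were not well above background on any array, and of the 5 tested none was called between the hairpins. Endothelium also carries Ly6a and Cd55, and the sum of 8 endothelial markers in basal cells was 21.6 to 26.1 with the control hairpin and 40.7 to 46.8 with shROR2. In luminal cells that sum was 11.1 to 11.9 and 14 to 14.5. In basal cells 2 of the 8 endothelial and 1 of 4 tested adipocyte markers were called higher with shROR2 (limma, adjusted p under 0.05). Of 4 tested pericyte and 4 tested erythroid markers 0 were called. Across all features 0.384% were called higher with shROR2 in basal cells. The next sums are given likewise, shLUC before shROR2. Adipocyte markers summed to 23.4 to 25.9 and 45 to 55.7 in basal cells and to 6.97 to 8.57 and 12.7 to 14.7 in luminal cells. Erythroid markers summed to 1.95 to 3.70 and 4.41 to 9.22 in basal cells and to 5.72 to 7.39 and 9.34 to 14.1 in luminal cells. Fibroblast markers had sums of 6.56 to 6.68 and 10.9 to 11.1 in luminal and 57.4 to 63.4 and 53.7 to 68.7 in basal cells, and none of the 8 was called between the hairpins. Pericyte markers summed to 3.5 to 4.12 and 5.02 to 6.64 in basal cells and to 0.764 to 1.01 and 1.40 to 2.01 in luminal cells. The part of these cells in the marker values was not tested.

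**Figure D5:**
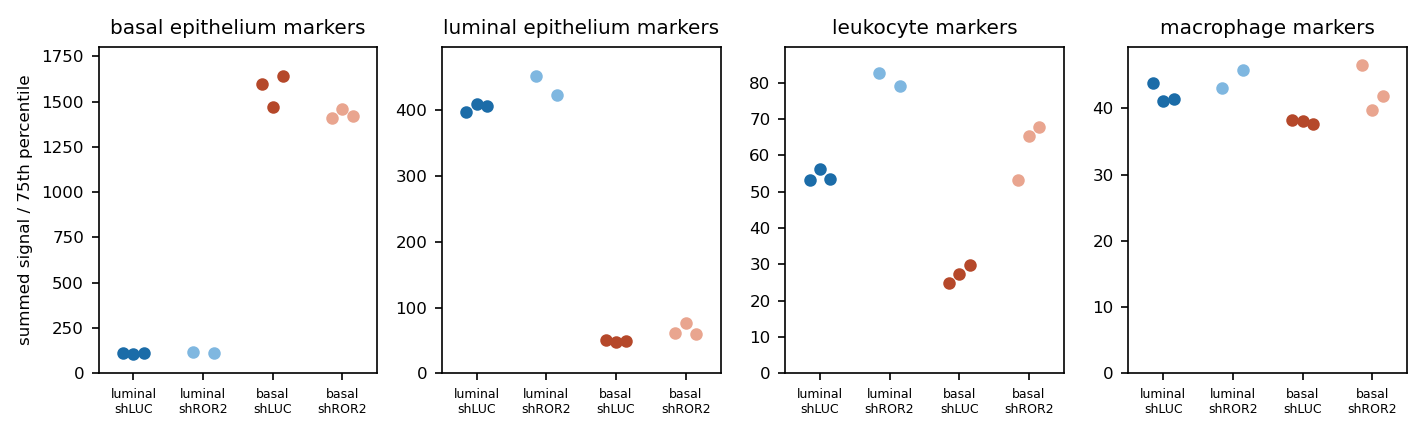
Summed scaled level (processed signal over the array's 75th percentile, y axis from 0) of 4 cell type marker lists on each array, by group (x axis). Leukocyte markers are higher in both shROR2 groups than in the shLUC group of the same layer, and luminal markers are far lower in basal than in luminal cells.

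No difference of the hairpin effect between the layers was called (0 of 29429 features, or 0%, in limma), while 3 members and 2439 features in all had an unadjusted p under 0.05. Cd14 differed by 0.89 ± 0.21 (SE; adjusted p = 0.352), with values of -0.28 in luminal and 0.61 in basal cells. Cd55 differed by 0.85 ± 0.29 (adjusted p = 0.51) and Cd24a by 0.36 ± 0.14 (adjusted p = 0.545). For Prom1 the hairpin difference was 0.63 in each layer.

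The gene lists around the members are described for control outgrowths, basal against luminal, where 13.7% of all features were called higher and 13.3% lower; they are the background of the counts in this comparison. Of 13 hormone-sensing luminal genes tested, 11 were lower and 0 higher, with a median log2 change of -3.41; Cited1 changed by -4.41, Stc2 by -4.25 and Areg, an epidermal growth factor receptor ligand, by -3.33. Of 14 progenitor or alveolar genes, 10 were lower and 2 higher (median -2.83), the lower ones including Wfdc18 at -3.15 and the milk protein gene Lalba at -3.69. Among 16 other mammary surface markers, 8 were higher and 5 lower; the endopeptidase gene Mme was higher by 3.46. Cdh3 and Pdpn were not well above background on any luminal array.

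Of 17 tested relatives of Ly6a, 7 were lower and 3 higher, with Ly6d at -4.46 and Ly6c1 at -1.24. Of 14 genes of the Cd14 and Toll-like receptor pathway, 7 were lower and 1 higher, with the receptor gene Tlr4 at -3.17 and the inhibitor Nfkbia at -1.01. Of 13 Epcam partners, 9 were lower and 1 higher, among them the claudins Cldn3 (-3.65) and Cldn7 (-3.07), and Fhl2 was the one higher (2.37). Of 15 genes of the Cd44, hyaluronan and ERM list, 6 were higher and 4 lower, with the proteoglycan Vcan at 4.98 and the actin linker Msn at 2.13. Kit signalling had 3 higher and 3 lower of 16, with the ligand Kitl higher by 1.18, and the complement regulators 2 and 2 of 8, with Clu at -2.91. The counts of these 2 lists were within 2 genes of the background share. Leukocyte, macrophage, fibroblast and endothelial markers differed between these layers as well, and their part in the values of the lists was not tested.

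Of the prominin and membrane domain list, 4 of 9 were higher and 1 lower, with Cav1, a caveolar coat protein, at 3.2. The list of CD24 receptors had 1 higher and 1 lower of 4, and GPI anchor assembly 1 higher and 3 lower of 19, which is also within 2 genes of the background share. In luminal cells the hairpin comparison called no gene of any of these lists. In basal cells it called Stc2 (1.03) of 13 hormone-sensing and Lalba (1.40) of 14 progenitor or alveolar genes as higher with shROR2. Of 17 relatives of Ly6a it called Ly6c1 (0.56) and Ly6d (0.99) as higher and Lypd3 (-0.57) as lower. Of 13 Epcam partners it called Fhl2 (-0.66) as lower, all on the log2 scale. No gene of the other lists was called. Across all features 0.384% were called higher and 0.584% lower. With only the groups compared 0 features were called, and with the replicate block 37.

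Across the 11 arrays the profiles most like a member, by Pearson's r and with the arrays shared by both genes, were those of Plscr2 for Cd24a (0.993), Rab3ip for Epcam (0.993), Atp6v1d for Prom1 (0.993), Zfp750 for Ly6a (0.992), Fhl2 for Cd44 (0.991), Pfkfb3 for Cd14 (0.994), Med24 for Kit (0.995) and Prlr for Cd55 (0.995). The 11 points share the split into layers, so these values are a description only. Within the 8 members, r between genes ran from 0.993 for Cd14 and Cd55 to -0.987 for Prom1 and Cd44.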

How the data were processed

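RNA from luminal and basal cells sorted from shLUC and shROR2 outgrowths was amplified and labelled with Cy3 for one-colour arrays, per the labels. Per the file headers, the intensity values of the scanner files come from Agilent Feature Extraction 11.0.1.1, with background subtraction and spatial detrending inside an array. The authors' deposited table holds normalized intensity values on a linear scale; the method is not given in the sources used. It served as an alternative.

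The tested value of a probe was its log2 processed signal less the array's 75th percentile over non-control spots; spots of a probe were averaged. Probes had to be well above background on at least 3 arrays. The probe with the highest mean stood for a gene. Probes were named through RefSeq accessions with a table of GRCm38.p6, used for names, and the file headers name another build. All 11 arrays entered 1 limma model (3.58.1, R 4.3.3) of 4 group means, and p-values were 2-sided with Benjamini-Hochberg adjustment over 29429 features, called under 0.05. Errors are SE or SD as given. The fit was tested on simulated data, with 50 features changed at each size. Changes of 0.5 on the log2 scale were recovered in 2% in each hairpin comparison. Changes of 1 were recovered in 42% in basal and in 22% in luminal cells. All other features were unchanged and a feature had the same spread in all groups, so these rates need not hold for the data. A member that was not called may still have changed. Figures were drawn with matplotlib 3.10.9.

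Named are the 8 members, Itgb1, the genes most like each member over 11 arrays (highest Pearson r), and from each list up to 3 genes of smallest p between the layers of control outgrowths, plus those called in the basal hairpin comparison. Members and lists were chosen with earlier results of these data known. The exact permutation test of Ror2 and the naming of the genes called with the hairpin were added after the data were seen. Same-numbered arrays did not deviate together (r -0.074 to 0.078), so replicate numbers were not used as pairs. Tried as alternatives were other scalings, background corrections, filters and probe rules, the slide or replicate number as a block, only the groups compared, and each array left out.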

Additional observations from a re-analysis of the deposited data

Results flagged for a closer look

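Cd14 was singled out because the hairpin groups did not overlap in either layer and lay in opposite directions. All 3 basal shROR2 arrays were above and both luminal shROR2 arrays below the shLUC arrays of their layer. This separation was the rule of choice and is no further support. Across all features the hairpin groups were apart in 29% in luminal and 18.5% in basal cells. The share that met the whole rule was not counted. The difference of the hairpin effect on Cd14, basal minus luminal, was 0.89 ± 0.21 (log2, SE). Tested as an interaction term in limma it did not pass (adjusted p = 0.352, range 0.127 to 0.656 over the alternatives).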

How the results depend on the processing

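In shLUC outgrowths the 8 layer differences kept direction and call under each of 11 other settings and with each of 11 arrays left out (88 of 88 values in both cases); in shROR2 outgrowths 85 of 88 and 88 of 88 values did, and the exceptions were the 3 genes named above with only the groups compared. Sizes moved with the background treatment: between the layers of shLUC outgrowths the log2 difference of Cd55 ran from -3.00 to -1.43, of Prom1 from -2.76 to -1.81 and of Kit from -3.29 to -2.57 over the settings, smallest in the deposited table. The counts of called features moved more, and the cause was not tested. With only the groups compared, 2828 features were called between the layers of shROR2 outgrowths (main 6722), and 0 in each hairpin comparison. In basal cells the main hairpin count of 285 became 687 with normexp, 539 with the authors' deposited table, 135 with no filter, 133 with the slide block and 37 with the replicate block; 39.6% of calls were higher in the main fit and 52.9% with array median scaling. In luminal cells the main count of 1 became 5 with quantile normalization, 22 with normexp and 22 with the deposited table, 3 with no filter, 6 with the filter on every array of a group, and 0 with median scaling, the mean of probes, the slide block or the replicate block. For the difference between the layers the counts were 1 with median scaling, 2 with quantile normalization, 7 with normexp, 8 with the deposited table and 3 with the stricter filter (main 0). With an array left out the counts ran from 5856 to 9595 and from 3779 to 7560 between the layers of shLUC and shROR2 outgrowths, from 0 to 10 and from 19 to 904 in the luminal and basal hairpin comparisons and from 0 to 7 for their difference.

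Values near 0 changed sign without passing. Cd24a in the luminal hairpin comparison was -0.015 with quantile normalization. For the difference between the layers Cd44 was 0.0095 with median scaling and 0.16 with the mean of probes, Epcam was 9e-04 with median scaling, 0.020 with quantile normalization, 0.042 with the deposited table and 0.0093 with the replicate block, and Prom1 was -0.21 with normexp, -0.21 with the deposited table, -0.16 with the mean of probes and -0.049 with the slide block. With an array left out, Cd24a (-9e-04 to 0.040) and Epcam (-0.16 to 0.096) changed sign in the luminal and Epcam (-0.29 to 0.051) and Kit (-0.080 to 0.53) in the basal hairpin comparison; for the difference so did Cd44 (-0.15 to 0.023), Epcam (-0.26 to 0.082), Kit (-0.014 to 0.60), Ly6a (-0.091 to 0.34) and Prom1 (-0.26 to 0.26). The replicate block changed no call of a member. The dim second probe of Prom1 and the probe of Ror2 are limited by signal over background.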
